A study of Mus musculus with 9 samples.

Results

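The interferon response genes described here are 41 mouse genes of interferon signalling and interferon-induced defence, chosen by symbol out of 27179 genes in the count table. All 41 symbols were found. In RNA immunoprecipitation sequencing (RIP-seq), the RNA that comes down with an antibody is sequenced and set against the RNA brought down by a control antibody and against the lysate. CD43- B cells from the spleens of wild type mice were activated for 72 h with CD40L (5 μg/mL), anti-IgM (10 μg/mL) and IL-4 (20 ng/mL), and no interferon is named among the stimuli. The labels name CD40L, whereas the methods of the study name an antibody to CD40 in its place. From these cells 3 libraries came from RNA precipitated through the phosphorylated form of UPF1 (p-UPF1 RIP), 3 from RNA precipitated by normal rabbit IgG (IgG RIP) and 3 from the lysate (Input). All groups therefore share genotype, cell preparation and stimulation, and differ only in what was done with the lysate. The age and strain of the mice used for these libraries are not given in the labels, and nothing in the labels says that the 3 libraries of a group came from separate mice or cultures, so P-values here measure the spread between libraries.

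Interferons bind paired receptor chains, and the kinases on those chains activate STAT proteins, which with IRF9 bind interferon-stimulated response elements (ISREs) in front of antiviral genes. B cells carry both receptor types and keep part of this program at a basal level without infection. UPF1 is an RNA helicase of nonsense-mediated mRNA decay (NMD). It is phosphorylated on RNAs where decay factors are recruited, so RIP with an antibody to the phosphorylated form is used to list candidate target RNAs.

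The ISRE is a DNA feature that many of these genes share, and it was read here beside p-UPF1 recovery. The letters GAAA, any 2 bases (NN) and GAAA again were searched on both strands of RefSeq promoter windows (GRCm38.p6, 300 bases, from 250 before the start site to 50 after it). A window was given for 32 of the 41 genes, and 13 of these 32 held the motif, while 3.93% of the 18458 genes of the count table with a window did. Since fewer than 80% of the genes had a window, no comparison of these shares was made. Below are 5 windows of 30 bases, written 5′ to 3′ along the strand of the gene, with every match of the motif in capitals. They were picked by their values, the first pair from RNAs that were recovered with anti-p-UPF1, and the last 3 from RNAs that were depleted.
Stat2 (chr10:128270266-128270295, plus strand): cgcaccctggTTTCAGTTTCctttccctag
Eif2ak2 (chr17:78882535-78882564, minus strand): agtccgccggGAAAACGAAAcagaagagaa
Isg15 (chr4:156200871-156200900, minus strand): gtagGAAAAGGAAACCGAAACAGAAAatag
Oas3 (chr5:120777715-120777744, minus strand): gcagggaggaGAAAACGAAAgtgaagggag
Gbp3 (chr3:142559989-142560018, plus strand): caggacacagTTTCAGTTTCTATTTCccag

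The Isg15 window holds 3 overlapping matches and the Gbp3 window 2, and the other windows hold 1 each. In Stat2 and Gbp3 the matches lie on the opposite strand of the gene and so read TTTC, NN, TTTC. Positions are counted from the start site on which the RefSeq window was built, which in Oas3 and Gbp3 lies slightly inside the outer end of the gene. The first base of a match was 222 bases before that site in Stat2, 78, 72 and 66 before it in Isg15, 75 before it in Oas3, and 45 and 39 before it in Gbp3. In Eif2ak2 it was 18 bases after the site. Over the 12 tested genes with a motif the log2 fold change (log2FC) of p-UPF1 RIP over IgG RIP ran from -2.13 in Isg15 to 3.24 in Stat2, with a median of -0.74. Of these 12 genes 9 were lower in p-UPF1 RIP, Stat2 and Eif2ak2 were higher, and Rsad2 did not pass the test, where 42.2% of all genes tested were lower and 40.4% higher. The 359 tested genes with a motif in their window had a median of -0.11.

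Reads were enough for a test in 38 of the 41 genes. The other 3 were Oas2, an oligoadenylate synthetase, Ifit3, an antiviral protein, and Ifi44, an interferon-induced protein. Their highest value in any library was 0.425 CPM (read counts relative to the library total after TMM scaling) for Oas2, 0.205 CPM for Ifit3 and 0.213 CPM for Ifi44. The interferon genes themselves were almost silent. Of 15 listed, 10 had no count in any library. Only Ifng was tested, at 3 to 5 reads in Input, 4 to 7 in IgG RIP and 12 to 13 in p-UPF1 RIP libraries.

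The 38 genes did not move as a group. Compared with IgG RIP, 10 of 38 (26.3%) were higher in p-UPF1 RIP by a log2FC of at least 1 at an adjusted P under 0.05, where 22.2% of all 13129 genes tested were. A further 7 (18.4%) were lower by at least as much, where 21.9% of all genes were. Without a minimum fold, 15 genes were higher and 20 lower, beside 40.4% and 42.2% of all genes. The median log2FC of the 38 was -0.50 over IgG and -0.45 over Input, against -0.03 over both references for all genes tested. The values ranged from -2.13 to 3.24 over IgG.

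By the study's methods, an RNA is p-UPF1-bound when p-UPF1 RIP exceeds IgG RIP by a log2FC of 1 or more and Input by 2 or more, both at an adjusted P under 0.05. This criterion was met by 6 of 38 genes (15.8%), beside 6.25% of all genes tested. They were Stat2, Irf1, Eif2ak2, Adar, Mx2 and Mx1. Against Input alone, the same 6 genes reached the minimum of 2, where 6.31% of all genes did, and Isg15 and Bst2 fell below -2, where 9.67% of all genes did. Just inside the limit stood Mx1 with a log2FC over Input of 2.14 and Mx2 with 2.20, and just outside it stood Parp14 with 1.98, then Ifnar1 with 1.67 and Ifnar2 with 1.62. Stat2, Irf1, Eif2ak2 and Adar met the criterion under each of 15 other settings and with each of the 9 libraries left out. Mx1 and Mx2 missed it under 1 of those settings, a test of the fold minimum itself, and Parp14 met it under 8 of them and with p-UPF1 library A left out.

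**Figure D1:**
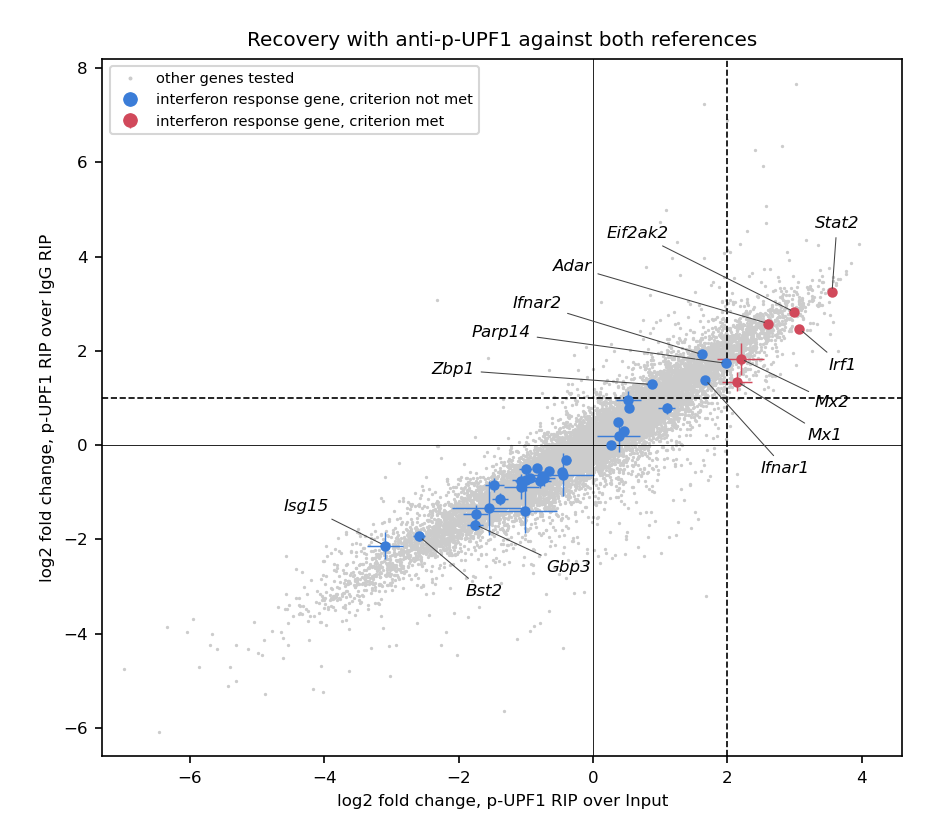
Log2 fold change of p-UPF1 RIP over Input (x axis) and over IgG RIP (y axis) for the 38 tested interferon response genes (coloured points, bars are the SE) and for all other genes tested (grey). Dashed lines mark the fold minimums of the p-UPF1-bound criterion. The 6 genes that met it lie in the upper right field with Stat2 farthest out, Parp14 lies on the edge at 1.98 over Input, and Isg15 is the lowest of the 38 on both axes.

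Control IgG and Input differed by a log2FC of less than 1 in each of the 38 genes and in most of all genes tested. In edgeR's test of IgG RIP over Input, 0 of 38 genes were higher and 0 were lower by a log2FC of at least 1, beside 2.07% and 2.16% of all genes tested. DESeq2 and limma-voom also gave 0. Without a fold minimum 22 of the 38 passed an unadjusted P of 0.05 and 20 passed after adjustment, with 9 higher and 11 lower in IgG RIP, beside 18.2% and 34.7% of all genes. The nearest to the minimum was Isg15, at -0.96 ± 0.21 (SE), which passed it when Input library A, Input library C or IgG library A was left out.

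In total, the 41 genes took 0.158% ± 0.000754 of all counts in Input, 0.167% ± 0.00129 in IgG RIP and 0.370% ± 0.00589 in p-UPF1 RIP libraries (SD, n = 3). Most of that difference came from a few RNAs. The 6 bound RNAs took 0.0270% of counts in Input, 0.0337% in IgG RIP and 0.208% in p-UPF1 RIP libraries. The other 35 genes together took 0.131%, 0.134% and 0.162%. Stat2, Eif2ak2 and Adar alone accounted for 0.180% of the counts of p-UPF1 RIP libraries.

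Among the receptors, both chains of the type I interferon receptor and 1 chain of the interferon-gamma receptor were higher in p-UPF1 RIP, while the other was lower. Ifnar1 and Ifnar2 form the receptor for interferon alpha and beta. Ifnar2 stood at 48.3, 52.7 and 48.0 CPM in Input, at 41.9, 38.8 and 40.4 CPM in IgG RIP, and at 148, 162 and 149 CPM in p-UPF1 RIP. Its log2FC over IgG was 1.92 ± 0.055 (SE; edgeR, adjusted P = 6.83e-15). All 3 p-UPF1 libraries exceeded the 6 others by a wide margin. Ifnar1 was at 98.1, 98.3 and 100.01 CPM in Input, 114 to 123 in IgG RIP and 309 to 317 in p-UPF1 RIP, a log2FC over IgG of 1.39 ± 0.041 (adjusted P = 1.01e-14, edgeR). Neither reached the minimum over Input.

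Ifngr1 carries the binding site for interferon gamma and Ifngr2 is its signalling partner. Ifngr2 rose slightly, from 86.0 to 94.1 CPM in IgG RIP to 126 to 131 CPM in p-UPF1 RIP, with a log2FC of 0.50 ± 0.046 (adjusted P = 3.74e-08, edgeR). Ifngr1 fell from 26.1 to 32.2 CPM in IgG RIP to 15.9 to 18.9 CPM in p-UPF1 RIP, with a log2FC of -0.76 ± 0.090 (adjusted P = 6.7e-07, edgeR). With 3 libraries a group, an exact permutation test cannot give a two-sided P below 0.1, so ratios of reads between 2 genes, which no scaling of libraries changes, are given as values without a test. In every pair given, the gene with the higher log2FC over IgG stands first, so the ratios restate the fold changes of single genes. There were 2.59 to 2.73 reads of Ifngr2 per read of Ifngr1 in Input, 2.70 to 3.60 in IgG RIP and 6.69 to 8.08 in p-UPF1 RIP. Ifnar2, Ifnar1 and Ifngr2 are neighbours on chromosome 16, from position 91372783 to 91564007 (GRCm38), whereas Ifngr1 is on chromosome 10.

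The transcription factors held the RNA with the strongest recovery. Stat2 (chr10:128270498-128292853) encodes the STAT protein that is specific to type I and type III interferon signalling. Its values were 58.6, 56.1 and 57.5 CPM in Input, 71.5, 67.3 and 75.7 CPM in IgG RIP, and 667, 685 and 677 CPM in p-UPF1 RIP. The 3 p-UPF1 libraries lay close together and far above all others, and per kb of exon Stat2 had the highest level of the 41 genes in p-UPF1 RIP (151 CPM per kb). The difference over IgG was 9.45-fold, a log2FC of 3.24 ± 0.047 (adjusted P = 3.72e-18, edgeR), and a log2FC over Input of 3.56 ± 0.047 (adjusted P = 9.36e-19, edgeR). IRF9, its DNA-binding partner, differed far less at the RNA level. Irf9 was at 38.2 to 42.8 CPM in IgG RIP and at 48.7 to 50.4 CPM in p-UPF1 RIP, a log2FC of 0.29 ± 0.059 (adjusted P = 0.000252, edgeR), and with library size alone as scaling, which moved the median of all genes from -0.03 to -0.19, the adjusted P was 0.067. Reads of Stat2 per read of Irf9 numbered 1.55 to 1.66 in Input, 1.67 to 1.87 in IgG RIP and 13.2 to 13.9 in p-UPF1 RIP.

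Irf1 and Irf2 encode related factors that bind overlapping DNA elements, IRF1 as an activator and IRF2 largely as a repressor. Irf1 (chr11:53770014-53778374) was at 34.3, 31.6 and 33.8 CPM in Input, 51.3, 48.2 and 51.8 CPM in IgG RIP, and 280, 272 and 286 CPM in p-UPF1 RIP. Its log2FC was 2.47 ± 0.047 over IgG (adjusted P = 5.35e-17, edgeR) and 3.07 ± 0.049 over Input (adjusted P = 5.98e-18, edgeR). Irf1 was also recovered with control IgG, at a log2FC over Input of 0.60 ± 0.052 (adjusted P = 1.28e-07, edgeR), so its excess in p-UPF1 RIP was smaller over IgG than over Input. Irf2 went the other way, with 106 to 123 CPM in IgG RIP and 72.3 to 74.9 CPM in p-UPF1 RIP, a log2FC of -0.65 ± 0.052 (adjusted P = 4.81e-09, edgeR). In Input there were 0.252 to 0.279 reads of Irf1 per read of Irf2, in IgG RIP 0.392 to 0.488, and in p-UPF1 RIP 3.63 to 3.90. Irf7, the factor that amplifies type I interferon production, was scarce and fell from 4.89 to 6.16 CPM in IgG RIP to 2.81 to 3.37 CPM in p-UPF1 RIP.

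**Figure D2:**
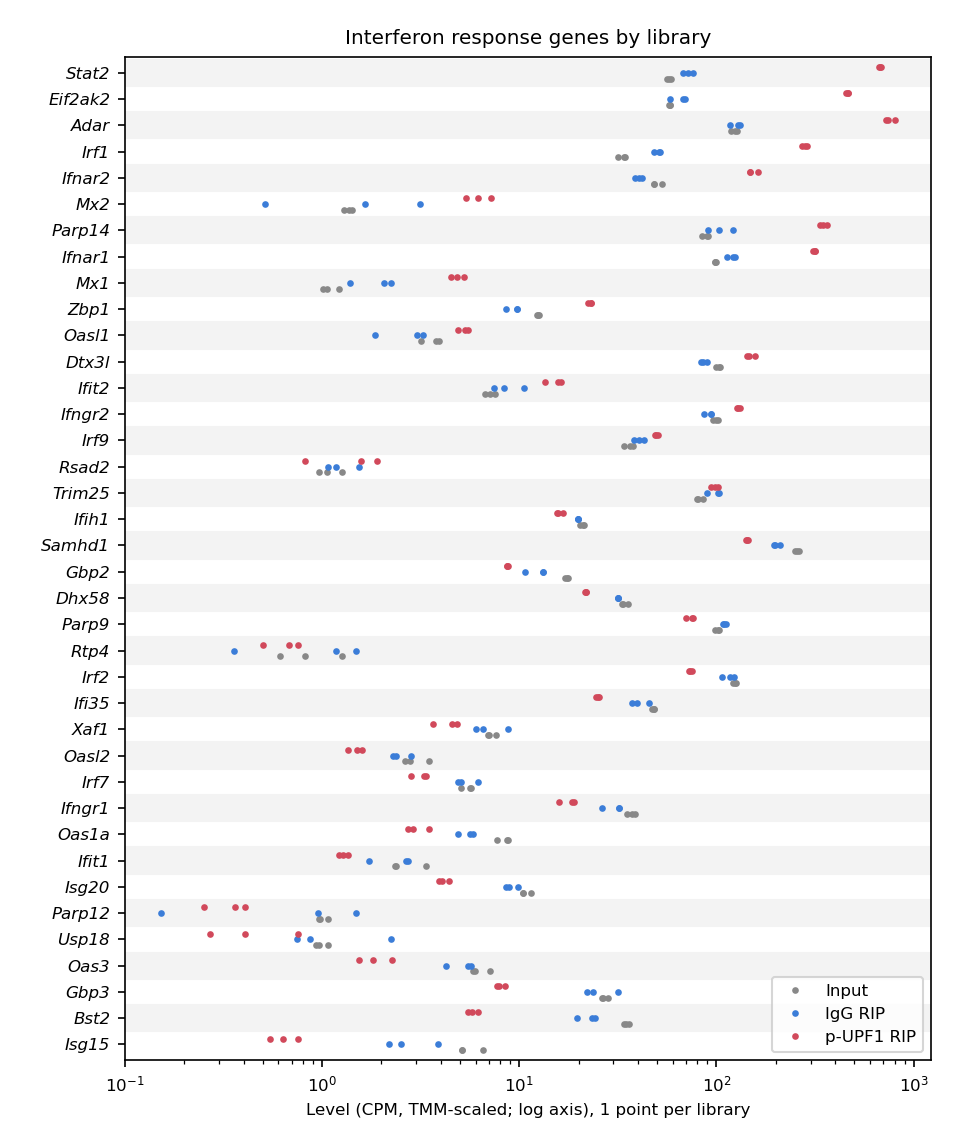
Level of each of the 38 tested interferon response genes in each library (x axis, CPM scaled by TMM factors, log axis), with genes ordered by their log2 fold change of p-UPF1 RIP over IgG RIP. Each point is 1 library, grey for Input, blue for IgG RIP and red for p-UPF1 RIP. In Stat2 at the top the 3 red points lie at 667 to 685 CPM, in Isg15 at the bottom at 0.544 to 0.758 CPM, and red and blue points overlap in Rsad2, Trim25, Rtp4, Parp12 and Usp18.

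Cytoplasmic sensors of foreign nucleic acid and their regulators were split. Zbp1, a sensor of left-handed Z-form nucleic acids, rose from 8.57 to 9.75 CPM in IgG RIP to 22.3 to 23.1 CPM in p-UPF1 RIP, with a log2FC of 1.29 ± 0.084 (adjusted P = 3.13e-10, edgeR). Ifih1, which encodes the double-stranded RNA (dsRNA) sensor MDA5, and Dhx58, which encodes the related helicase LGP2, both fell, with log2FC of -0.32 ± 0.072 and -0.55 ± 0.061. Trim25, the ubiquitin ligase that acts on RIG-I, stood at 89.3, 102 and 102 CPM in IgG RIP and at 98.5, 94.3 and 102 CPM in p-UPF1 RIP. Its libraries overlapped, and its log2FC of 0.00 ± 0.056 did not pass the test (adjusted P = 0.938, edgeR). With upper-quartile factors it was at -0.13 (adjusted P = 0.029, edgeR) and with library size alone at -0.16 (adjusted P = 0.0117, edgeR), while the median of all genes moved from -0.03 to -0.17 and -0.19, so that Trim25 stayed just above that median.

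Of the enzymes that act on or are activated by dsRNA, the kinase PKR and the deaminase ADAR were among the RNAs most strongly recovered, and the oligoadenylate synthetases and their relatives went both ways. Eif2ak2 (chr17:78850504-78882572) encodes PKR, which halts translation upon binding dsRNA. It was at 58.2, 57.4 and 57.8 CPM in Input, 58.0, 69.4 and 67.9 CPM in IgG RIP, and 452, 465 and 467 CPM in p-UPF1 RIP. Its log2FC was 2.82 ± 0.056 over IgG (adjusted P = 7.49e-17, edgeR) and 2.996 ± 0.056 over Input (adjusted P = 2.89e-17, edgeR). Adar (chr3:89714469-89753455) encodes the adenosine deaminase that edits dsRNA and keeps self RNA from activating MDA5. It was at 124, 119 and 127 CPM in Input, 118, 129 and 132 CPM in IgG RIP, and 724, 739 and 800 CPM in p-UPF1 RIP. Its log2FC was 2.58 ± 0.053 over IgG (adjusted P = 1.06e-16, edgeR) and 2.61 over Input. In both genes the IgG and Input libraries overlapped, and every p-UPF1 library lay far above both.

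The oligoadenylate synthetases make the second messenger that activates RNase L. Oas1a fell from 4.89 to 5.80 CPM in IgG RIP to 2.74 to 3.49 CPM in p-UPF1 RIP (log2FC -0.84 ± 0.15), and Oas3 fell from 4.26 to 5.69 CPM to 1.53 to 2.27 CPM (log2FC -1.46 ± 0.19). Of their relatives with a ubiquitin-like tail, Oasl2 fell (log2FC -0.74 ± 0.22) and Oasl1 rose (0.95 ± 0.19, adjusted P = 0.000278, edgeR). Of the wider pathway list, Oas1c was higher (log2FC 1.29 ± 0.071, adjusted P = 3.63e-11, edgeR) and Oas1b did not pass the test (-0.09 ± 0.13), both looked up after their values were seen. Oasl1 and Oasl2 are adjacent genes, from position 114896926 to 114937911 on chromosome 5. Oasl1 had 0.814 to 1.37 reads per read of Oasl2 in IgG RIP and 3.32 to 3.67 in p-UPF1 RIP. Both rest on few reads, with 108 to 126 for Oasl1 and 30 to 38 for Oasl2 in the p-UPF1 libraries.

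The ISG15 system was at the low end. Isg15 (chr4:156199424-156200818) encodes a ubiquitin-like modifier that is attached to proteins after interferon exposure. It was at 5.15, 6.51 and 5.09 CPM in Input, 3.88, 2.19 and 2.51 CPM in IgG RIP, and 0.758, 0.632 and 0.544 CPM in p-UPF1 RIP, the last from 18, 14 and 12 reads. Its log2FC was -2.13 ± 0.29 over IgG (adjusted P = 3.19e-06, edgeR) and -3.10 ± 0.26 over Input, the lowest of the 38 on both counts. The 3 groups did not overlap, and IgG RIP lay between the other groups. Usp18, the protease that removes ISG15, was near 1 CPM in Input, with a log2FC over IgG of -1.41 ± 0.47 (adjusted P = 0.0113, edgeR). Its p-UPF1 and IgG libraries overlapped, and the call moved most with IgG library B, which stood at 2.25 CPM while its partners stood at 0.744 and 0.872. Without that library the log2FC was -0.72 (adjusted P = 0.138, edgeR), and without p-UPF1 library B it was -1.13 (adjusted P = 0.0612, edgeR). Over Input the log2FC of Usp18 was -1.02 (adjusted P = 0.0604, edgeR), which passed under 6 alternatives, without IgG library B among them (-1.01, adjusted P = 0.021, edgeR).

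The PARP family members and Dtx3l were split as well. PARP9 and the ubiquitin ligase DTX3L form a complex, and PARP14 is a related ADP-ribosyltransferase. Their 3 genes lie within 141 kb on chromosome 16. Parp14 was at 84.6, 89.5 and 90.4 CPM in Input, 90.2, 102 and 121 CPM in IgG RIP, and 334, 347 and 363 CPM in p-UPF1 RIP, a log2FC of 1.74 ± 0.075 over IgG (adjusted P = 1.28e-12, edgeR). Dtx3l rose by 0.79 ± 0.048 on the log2 scale, and Parp9 fell by 0.57 on the log2 scale (SE 0.045). Parp9 and Dtx3l thus moved in opposite directions. In Input there were 0.966 to 1.04 reads of Dtx3l per read of Parp9, in IgG RIP 0.772 to 0.801, and in p-UPF1 RIP 1.93 to 2.09. The ends of the pair overlap by 334 bp on opposite strands, and if reads were counted without regard to strand, those of the overlap cannot be assigned to either gene.

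Parp12 was near 1 CPM in Input and at 6 to 9 reads in p-UPF1 libraries. Its log2FC over IgG was -1.34 ± 0.57 (adjusted P = 0.0392, edgeR), with overlapping libraries. The call was lost when any of 8 of the 9 libraries was left out. In 7 of these the log2FC stayed between -1.48 and -1.14, with adjusted P of 0.0558 to 0.129 (edgeR), and without IgG library C it was -0.69 (adjusted P = 0.299, edgeR). Without IgG library B it was -1.82 and passed (adjusted P = 0.000530, edgeR). In limma-voom it was -0.85 and did not pass (adjusted P = 0.233). The other 5 of the 7 genes that were lower by at least 1, namely Isg20, Oas3, Gbp3, Bst2 and Isg15, kept an adjusted P under 0.05 with any library left out.

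**Figure D3:**
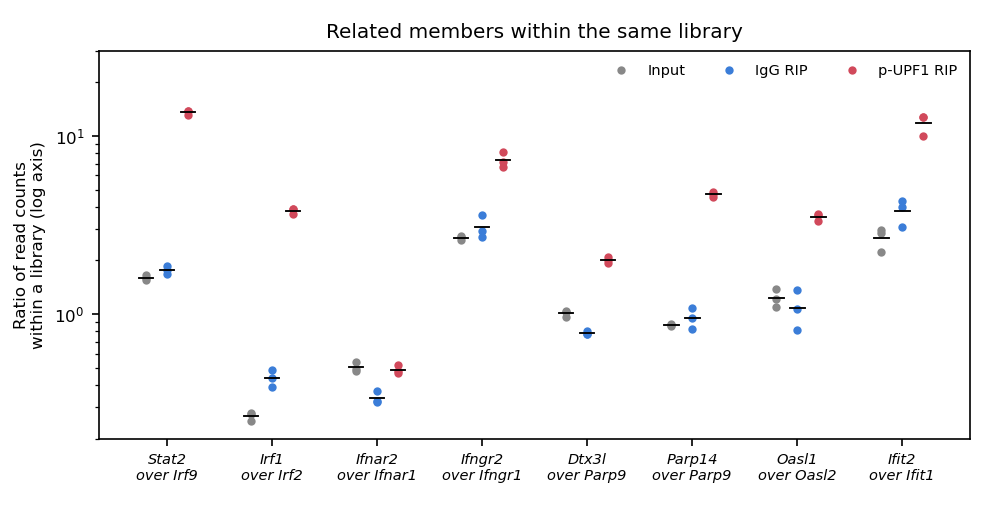
Ratio of the read counts of 2 related interferon response genes within the same library (y axis, log axis) for 8 pairs (x axis). Each point is 1 library, grey for Input, blue for IgG RIP and red for p-UPF1 RIP, and the black bars are means (n = 3). In every pair the gene listed first has the higher log2 fold change over IgG RIP. Ratios above those of IgG RIP follow from this order. The 3 p-UPF1 points lie above all 6 others in every pair drawn except Ifnar2 over Ifnar1, where they run from 0.468 to 0.515 within the range of Input and IgG RIP.

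Of the Ifit proteins, IFIT1 binds viral RNA that lacks the methylation of host caps. Ifit2 rose from 7.45 to 10.6 CPM in IgG RIP to 13.5 to 16.2 CPM in p-UPF1 RIP (log2FC 0.78 ± 0.12, adjusted P = 2.25e-05, edgeR). Ifit1 fell from 1.74 to 2.71 CPM to 1.22 to 1.35 CPM (log2FC -0.88 ± 0.26, adjusted P = 0.00526, edgeR). Reads of Ifit2 per read of Ifit1 numbered 3.10 to 4.29 in IgG RIP and 10.0 to 12.8 in p-UPF1 RIP.

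Among the interferon-induced GTPases both Mx genes rose and Gbp2 and Gbp3 fell. Mx proteins block influenza-like viruses, and guanylate-binding proteins (GBPs) act on the vacuoles of intracellular microbes. Mx2 was at 1.30, 1.41 and 1.38 CPM in Input, 3.14, 0.510 and 1.64 CPM in IgG RIP, and 6.15, 7.22 and 5.39 CPM in p-UPF1 RIP, a log2FC over IgG of 1.83 ± 0.34 (adjusted P = 0.000102, edgeR). Mx1 was at 1.05, 1.01 and 1.22 CPM in Input, 1.38, 2.25 and 2.05 CPM in IgG RIP, and 4.80, 4.51 and 5.21 CPM in p-UPF1 RIP, a log2FC of 1.35 ± 0.21 (adjusted P = 1.38e-05, edgeR). Without IgG library A the log2FC of Mx2 was 2.53 and without IgG library B 1.41, and it passed both times. For both genes every p-UPF1 library exceeded every other library, at 100 to 160 reads each. Both are annotated in RefSeq on GRCm38 as transcribed pseudogenes, since the reference strain carries disrupted copies. GENCODE lists 3 transcripts of the biotype nonsense-mediated decay for Mx1 and 0 for Mx2. Of 12855 tested genes with a RefSeq gene type, 104 were transcribed pseudogenes. The p-UPF1-bound criterion was met by 15 of these 104, beside 6.25% of all genes tested. Their median log2FC over IgG was -0.33, against -0.02 in the other genes with a type.

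Gbp3 (chr3:142560016-142573213) was at 26.4, 26.5 and 28.0 CPM in Input, 31.8, 23.6 and 22.2 CPM in IgG RIP, and 7.67, 8.44 and 7.93 CPM in p-UPF1 RIP. Its log2FC was -1.69 ± 0.12 over IgG (adjusted P = 1.22e-09, edgeR), and IgG and Input overlapped. Gbp2, its neighbour within 78.0 kb, fell from 10.7 to 13.2 CPM in IgG RIP to 8.62 to 8.79 CPM in p-UPF1 RIP (log2FC -0.51 ± 0.10, adjusted P = 0.000205, edgeR). Their relatives went the other way. All 7 further GBP genes in the list of other pathway genes (Gbp4 to Gbp10, looked up after their values were seen) were higher than IgG RIP, with log2FC from 0.66 to 1.47, and 0 of them met the p-UPF1-bound criterion, beside 40.4% and 6.25% of all genes tested. GBP genes are close paralogs, so reads that match several of them leave single values uncertain.

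Of the other 8 restriction and effector genes, 7 were tested, 5 fell and 0 rose, where 42.2% and 40.4% of all genes tested did. Bst2 encodes tetherin, which holds budding virions at the cell surface. It was at 35.0, 36.0 and 34.1 CPM in Input, 24.1, 19.5 and 23.3 CPM in IgG RIP, and 6.19, 5.51 and 5.76 CPM in p-UPF1 RIP. Its log2FC was -1.94 ± 0.098 over IgG (adjusted P = 1.09e-11, edgeR) and -2.59 ± 0.094 over Input, and the groups did not overlap. Isg20, an exonuclease, fell by 1.14 on the log2 scale (SE 0.12), Xaf1, a pro-apoptotic factor, by 0.71 (SE 0.16), and Ifi35 by 0.71 (SE 0.069). Samhd1, which degrades deoxynucleotides, had the highest level per kb of exon of the 41 genes in Input and fell from 250 to 261 CPM there and 195 to 209 CPM in IgG RIP to 142 to 145 CPM in p-UPF1 RIP.

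Rsad2, which encodes viperin, and Rtp4 did not pass the test, and their libraries overlapped. Rsad2 was at 0.816 to 1.90 CPM in p-UPF1 RIP and 1.07 to 1.54 CPM in IgG RIP, a log2FC of 0.19 ± 0.32 (adjusted P = 0.603, edgeR). Rtp4 was at 0.499 to 0.758 CPM in p-UPF1 RIP and 0.359 to 1.48 CPM in IgG RIP, a log2FC of -0.63 ± 0.46 (adjusted P = 0.211, edgeR). Without IgG library C, Rtp4 passed as lower (-1.03, adjusted P = 0.021, edgeR). Both genes rest on 11 to 45 reads a library in p-UPF1 RIP. Across the 38 genes, the p-UPF1 libraries lay above all IgG libraries in 15, below all of them in 18, and overlapped them in 5. Of all genes tested, 40.6% lay wholly above the IgG libraries and 41.5% wholly below.

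What the genes share in their transcripts was set beside recovery as a description. A RefSeq coding transcript was available for 36 of the 38 genes, the exceptions being Mx1 and Mx2. The 3′ UTR had a median of 951 nt in these 36 genes and of 1016 nt in 11905 genes tested. Across the 36 genes, 3′ UTR length and log2FC over IgG gave a Pearson r of 0.46 and a Spearman rho of 0.57, beside 0.22 and 0.36 over the 11905 genes. With the log2FC of IgG RIP over Input, 3′ UTR length gave 0.42 and 0.42 in the 36 genes, beside 0.14 and 0.17. The 3 genes with the lowest log2FC had 3′ UTRs of 160 nt in Isg15, 244 nt in Bst2 and 521 nt in Gbp3. Stat2 had 1480 nt, Irf1 878 nt, Adar 2280 nt and Eif2ak2 2589 nt. Irf2 with 1236 nt and Samhd1 with 1865 nt were lower in p-UPF1 RIP, and Trim25 with 3572 nt had a log2FC of 0.00.

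**Figure D4:**
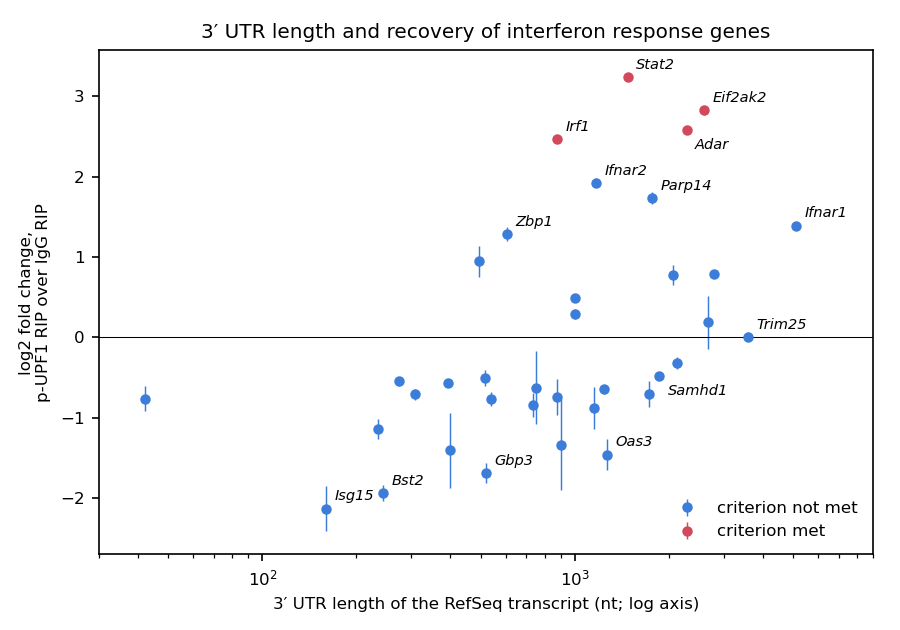
Length of the 3′ UTR of the RefSeq transcript (x axis, nt, log axis) and log2 fold change of p-UPF1 RIP over IgG RIP (y axis, bars are the SE) for the 36 interferon response genes with a coding transcript. Red points met the p-UPF1-bound criterion. Genes under 400 nt, such as Isg15 and Bst2, lie below 0. Longer ones lie on both sides, with Oasl1 (493 nt) at 0.95, Gbp3 (521 nt) at -1.69, Stat2 at 3.24 and Oas3 at -1.46.

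These points share the libraries and their depth, and longer transcripts give more reads. The whole transcript gave an r of 0.51 and the coding part an r of 0.35 over the same 36 genes. With the log2FC of IgG RIP over Input these were 0.44 and 0.24. The level in Input also moved with recovery, with an r of 0.42 between log2 CPM in Input and log2FC over IgG, whereas over the 11905 genes that r was -0.22. The part of length or level in the result was not tested. None of the 36 RefSeq transcripts had an exon junction more than 50 nt after the stop codon, a textbook feature of NMD targets (0 of 36, beside 0.269% of 11905 genes). An ATG upstream of the coding start was found in 15 of 36 (41.7%, beside 46.6%), with a median log2FC over IgG of 0.29 in these 15 and -0.63 in the other 21, beside 0.17 and -0.16 over all genes. A GENCODE transcript of the biotype nonsense-mediated decay was listed for 14 of 38 genes (36.8%, beside 27.3% of 12787 genes), with a median log2FC over IgG of -0.54 in these 14 and -0.16 in the other 24. Over all genes the medians lay the other way round, at 0.17 with such a transcript and -0.10 without.

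The other genes of the interferon pathway also went both ways. Of 128 listed, 101 were tested, with a median log2FC over IgG of -0.04, beside -0.50 in the 38 genes and -0.03 in all genes. By a log2FC of at least 1, 27 (26.7%) were higher and 17 (16.8%) lower than IgG RIP, beside 22.2% and 21.9% of all genes. The p-UPF1-bound criterion was met by 5 (4.95%, beside 6.25% of all genes). These were Ptpn11, which encodes the phosphatase SHP2, Ciita, the master regulator of MHC class II genes, Tor3a, an interferon-induced torsin, Cgas, the sensor of cytosolic DNA, and Myd88, the adaptor of most Toll-like receptors. Ciita was at 346 ± 10.6 CPM in Input, 300 ± 22.3 in IgG RIP and 2374 ± 61.2 in p-UPF1 RIP (SD, n = 3; log2FC over IgG 2.98 ± 0.051, adjusted P = 1.6e-17, edgeR). Cgas and Myd88 were near the limit, with log2FC over Input of 2.04 and 2.06. At the other end were 3 small interferon-induced membrane proteins, Ifi27l2a with a log2FC over IgG of -3.16 ± 0.15, Ifitm2 with -2.66 ± 0.083 and Ifi27 with -2.15 ± 0.063.

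The libraries were deep and close to one another. Total counts ran from 17372510 to 24945286 per library, and libraries of the same group correlated at 0.982 or more (Pearson's r, log2 CPM), with IgG RIP the most variable group (biological coefficient of variation 9.04%, beside 3.78% in p-UPF1 RIP and 1.88% in Input). All 7 B cell markers were tested, with a summed level of 3630 to 3650 CPM in Input, 2800 to 2920 in IgG RIP and 2520 to 2590 in p-UPF1 RIP. Of 5 T cell markers 0 were tested, with a sum of at most 0.917 CPM, and erythroid Hba-a1 and Hbb-bs and neutrophil Ly6g were at 0 in Input. Of 5 macrophage markers only Adgre1 was found, at 131 CPM in Input, 89.3 in IgG RIP and 57.8 in p-UPF1 RIP, while Lyz2, Csf1r, Cd14 and Itgam were below 0.31 CPM in every group. Of 4 plasmacytoid dendritic cell markers, the cells that make most type I interferon, only Cox6a2 was found, at 33.7 CPM in Input and 2.79 CPM in p-UPF1 RIP, while Siglech and Ccr9 were near 0.2 CPM and Klk1 was at 0 in Input.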

How the data were processed

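RIP-seq libraries of activated mouse splenic B cells were assigned to Input, IgG RIP and p-UPF1 RIP by their labels. What the authors deposited is a table of raw counts, 1 row per NCBI Gene number. The submitters' processing notes name cutadapt, HISAT2, featureCounts and mm10, without versions, and whether strand was used in counting of these libraries is not given in the sources used here. If it was not, reads of overlapping genes on opposite strands, as at the end of Adar (8 bp shared with a neighbour), cannot be told apart. The counts hold no molecular identifiers, so duplicates of a molecule were counted separately.

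Symbols were found through RefSeq on GRCm38 for 25275 of 27179 identifiers. Genes were filtered with filterByExpr (minimum count 10, minimum total 15), counts were scaled by TMM factors, and 1 model of the 3 groups was fitted to 9 libraries with 6 residual degrees of freedom. Contrasts used the two-sided quasi-likelihood test of edgeR (4.0.16, in R 4.3.3) with Benjamini-Hochberg adjustment over 13129 genes. Log2FC carry a prior count of 0.125 and are given with an SE, the size of the log2FC divided by the square root of the test's F value. The spread behind this SE is estimated over all 9 libraries, so a group outside a contrast also enters it. The script was tested on simulated counts with known fold changes. TMM assumes that most genes do not differ, so values are relative to the bulk of RNAs and not to the amount precipitated.

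The columns of the table carry letters and the labels numbers, so a column is known by its group and not by its replicate. Total counts of 17372510 to 24945286 per library put 1 CPM, after TMM scaling, at 18.8 to 24.7 reads. Replicates differed by more than sampling noise in every pair (chi-square per degree of freedom 1.38 to 9.94, genes with at least 20 counts).

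Transcript features came from the RefSeq Select or longest coding transcript on GRCm38, and decay biotypes from GENCODE M21. The 41 genes, the lists of 128 other pathway genes and of cell markers, the tests and the alternatives were chosen with earlier results of these data known. All 41 genes could be named, as could other pathway genes that met the bound criterion or were the 3 lowest at a mean of at least 10 CPM, and any cell marker. Oas1b, Oas1c and Gbp4 to Gbp10 lie outside this rule and were named after their values were seen. Alternatives covered scaling, filter, test (DESeq2 1.42.0, limma 3.58.1), fold and P thresholds, prior count, and leaving out each library, and the column letter as a block was added after seeing the data.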

Additional observations from a re-analysis of the deposited data

How the results depend on the processing

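The genes that were higher by at least 1 over IgG numbered 10 or 11 under every alternative, and those that met the p-UPF1-bound criterion 6 or 7, except 4 under edgeR's glmTreat, which tests the fold minimum itself and lost Mx1 and Mx2, and 9 with a minimum of 1 over Input. Under glmTreat 4 genes were lower by at least 1 over IgG (Isg20, Parp12 and Usp18 were lost), and 3 of the other pathway genes were bound. Upper-quartile factors also gave 3, without Cgas and Myd88. A minimum of 1 over Input gave 10 genes higher and 10 lower than Input, and 24 bound other pathway genes. No share of all genes is given for these alternatives, so their counts are not set beside a background. With 1 library left out at a time there were 0 to 1 genes lower by at least 1 in IgG RIP than in Input.

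The median log2FC of the 38 genes moved with the scaling. Upper-quartile factors gave -0.63 over IgG and -0.52 over Input. Over IgG it was also -0.58 where an Input library was the TMM reference and -0.66 without TMM factors. Over Input it was -0.32 both where an IgG library was the TMM reference and without the low-count filter. Under these scalings the median of all genes moved alongside, and the 38 genes stayed -0.46 from it over IgG and -0.42 over Input, as with TMM. Without the filter the distance of the same 38 genes over Input was -0.32, from a median over every gene with a count, which is another baseline. With 1 library left out at a time the median ran from -0.50 to -0.37 over IgG and from -0.58 to -0.41 over Input. The cause of the shift without the filter or a library was not tested.

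Trim25, at 0.00 over IgG, turned to -0.13 under upper-quartile factors, -0.16 without TMM factors, -0.0794 where an Input library was the TMM reference and -0.0049 where only the groups compared were fitted, and ran from -0.058 to 0.050 when a library was left out. Rsad2 ran from -0.056 without p-UPF1 library A to 0.47. Trim25 passed as lower under the first pair of these settings (adjusted P = 0.029 and 0.0117, edgeR), where the median of all genes also fell, to -0.17 and -0.19. Of 2013 values of single genes under settings other than glmTreat, 1945 kept direction and side of the threshold, 54 lost the call, 7 gained it and 7 turned, all of them Trim25 or Rsad2 over IgG.

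No source ties the letters of the columns to replicate numbers or to shared lysates. Libraries with the same letter deviated from their group means with correlations of -0.0051 to 0.0542 across genes, and 6 of 9 libraries had their best match in another group under their own letter. With the letter as a replicate block, chosen after seeing the data (4 residual degrees of freedom), 10 of the 38 genes were higher and 7 lower by at least 1 over IgG, 6 were bound, the medians were -0.49 over IgG and -0.45 over Input, and 0 calls of single genes changed. Depth was lowest behind the 4 tested genes with the lowest mean over the groups, Parp12, Rtp4, Usp18 and Rsad2, at 0.736 to 1.26 CPM.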
